A study of Cucumis melo with 12 samples.

Results

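Radicles of melon (*Cucumis melo*) grown from seeds that had been immersed in a low dose of *Bacillus velezensis* FZB42 were compared with radicles from water-treated (mock) seeds. The comparison covers every gene of the deposited list for low-dose radicles, 291 of the 3256 genes that appear on any of the 6 lists of the series, and each of them also had a value in mock radicles. Seeds of the variety Rochet Panal were surface sterilized, kept for 90 min in water or in the bacterial suspension (log10 CFU per ml of 7), and germinated in darkness, and the radicles were collected on day 5. The series holds 12 libraries in 6 groups, of which 2 low-dose and 2 mock radicle libraries enter here, and the study's methods call them biological duplicates. The duplicates are deposited as 1 combined value per gene and group, so that no spread between libraries, no error and no test can be given for any difference below. The lists hold genes selected by the authors on these samples, and the direction of a listed gene is therefore not independent evidence of a response.

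*B. velezensis* FZB42 is a plant-associated bacterium that colonizes roots and secretes cyclic lipopeptides. The radicle is the embryonic root, the first organ to leave the seed, and its outgrowth draws on new transcription, on protein turnover and on the mobilization of seed lipids. Names are available for 16 genes of the series from the study's own gene table, and 7 of them are on the low-dose radicle list. They encode 3 proteins of transcription, a proteasome subunit, a protein of organelle RNA processing, and 2 proteins that act on or bind lipids. The identifiers of the other genes are not paired with names in the data used here, and none of the 291 matched the available RefSeq gene table of melon. Root cell markers could not be looked up for the same reason, and the tissue label was not checked against the data.

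The values carry the name FPKM in the deposited lists, but low values of different genes recur or share a common spacing, as described below. They therefore do not appear to be per gene length, and they are treated here as a relative signal of unstated scale. Differences are given as log2((low dose + 1)/(mock + 1)), on which 1 stands for a doubling of the value after the added 1. Of the 291 genes, 221 were listed above mock and 70 below it. Past a log2 of 1, 216 genes were above mock (74.2% of the list) and 69 below (23.7%). Past a log2 of 2, 122 were above (41.9%) and 12 below (4.12%). With the median log2 ratio of 1.66 removed, 100 genes were above and 70 below past a log2 of 1, although a median over genes selected for a difference is not a scale of the whole transcriptome. In bulk tissue, a change in the share of a cell type and a change in RNA per cell cannot be told apart.

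**Figure D1:**
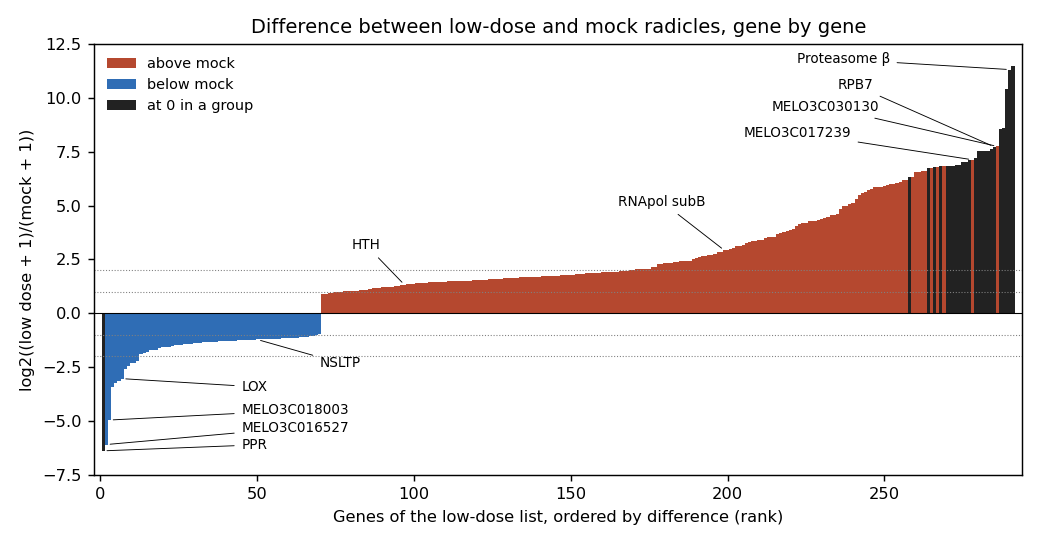
Each bar is 1 of the 291 genes of the low-dose radicle list, ordered by log2((low dose + 1)/(mock + 1)) on the y axis, with dotted lines at 1 and 2 in each direction and black bars for genes listed at 0 in a group. No gene lies between -0.98 and 0.90, the 221 genes above mock (red) reach 11.46, and the 70 below it (blue) reach -6.39.

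The genes above mock spread over a wide range, whereas those below mock were mostly close to each other. The median log2 was 2.32 for the 221 genes above mock, with quartiles at 1.58 and 4.85, and -1.33 for the 70 genes below mock, with quartiles at -1.67 and -1.20. Between 1 and 2 lay 94 of the genes above mock, and 57 of those below lay between -1 and -2. No listed gene lay between -0.98 and 0.90, and 6 genes in all had a size under 1 (5 above and 1 below mock). This empty range belongs to the selection of the list. Past a log2 of 5, 53 genes were above mock, and 50 of these had a mock value under 10. Beyond -5 there were 2 genes.

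The listed differences are given by mock value as a description, since the list was selected for a difference and a gene with little signal in mock could enter it mainly by a high low-dose value. All 24 genes listed at 0 in mock and all 29 with a mock value above 0 and under 10 were above mock at the low dose, and the latter had a median log2 of 6.02. Of the 30 genes with a mock value from 10 to 100, 29 were above mock, with a median log2 over the 30 of 3.81. From 100 to 1000, 49 of 55 genes were above mock. From 1000 to 10000 the list was nearer to even, with 75 genes above mock and 53 below, and from 10000 upwards 15 were above and 10 below. The lowest mock value among the genes below mock and above 0 in both groups was 520, and the lowest low-dose value among the genes above mock was 78.3. Among the 208 genes with a mock value of at least 100, 139 were above mock and 69 below, and 40 and 11 of them passed a log2 of 2.

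**Figure D2:**
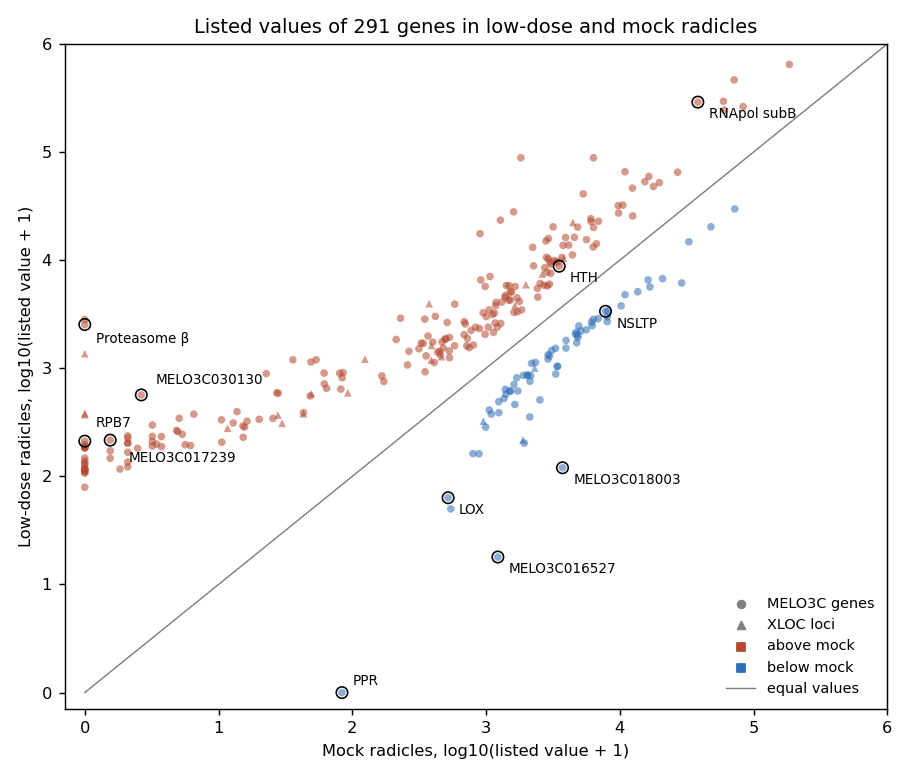
Each point is 1 gene of the low-dose list, with log10(listed value + 1) in mock radicles on the x axis and in low-dose radicles on the y axis, red above and blue below mock, triangles for XLOC loci, and black circles around the 11 named genes. Points on the grey line would have equal values. Below a mock value of 100 all genes but PPR lie above the line.

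The summed value of the 291 genes was 2.90 times as high at the low dose as in mock. This sum rested on few genes, since the 10 genes with the highest low-dose values held 64.3% of it at the low dose, and the 10 highest in mock held 50.5% there. Each of the 10 genes with the highest low-dose values was above mock, and 6 of them were also among the 10 highest in mock. At least 10000 was reached by 48 genes at the low dose and by 25 in mock. As the values do not appear to be scaled to gene length, they are not read as a ranking of genes by transcript number.

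The 3 transcription genes of the study's table were listed above mock, as were 75.9% of all listed genes. RNApol subB (MELO3C011383) is annotated as the beta subunit of a DNA-directed RNA polymerase, a name used for catalytic core subunits. Its listed value was 38367 in mock radicles and 289896 in low-dose radicles, 7.56 times as high, or a log2 of 2.92. From the highest log2 downwards it was at rank 93 of the 291 genes. HTH (MELO3C014217), with a myb-type helix-turn-helix domain that binds DNA in many plant transcription factors, had a mock value of 3525 and a low-dose value of 8790, 2.49 times as high and a log2 of 1.32. It was at rank 195 from the highest log2, among the smaller differences above mock, and its direction turned to -0.35 when the median log2 ratio of the list was removed.

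The RNA polymerase II subunit RPB7 (MELO3C027194) is known from yeast as part of the stalk of the enzyme that makes messenger RNA. Its value was 0 in mock and 211 in low-dose radicles. The proteasome subunit beta (MELO3C027069), whose relatives line the proteolytic chamber of the proteasome, likewise had a mock value of 0, and its low-dose value was 2540. Against a value of 0 a fold is not defined, so none is printed. Among the 24 genes at 0 in mock the low-dose values ran from 78.3 to 2816 with a median of 142, so that both genes lay above the median, and the proteasome gene was second to 1 other gene. High-dose radicles, which were compared with the same mock libraries, were listed at 146 for RPB7 and 1799 for the proteasome subunit, below the low-dose values of both. The same held for each of the 20 genes at 0 in mock that were also on the high-dose list. Their low-dose values were 1.41 to 5.25 times the high-dose values, and the proteasome subunit (1.41) and RPB7 (1.45) had the smallest of these ratios. A gene at 0 in mock could enter the low-dose list only by its low-dose value, and the lowest such value was 78.3. The high-dose list also holds lower values, such as 15.5 for the respiratory burst oxidase gene RBOH, likewise at 0 in mock. The order of the doses in these 20 genes is therefore not independent of the selection of the list. Whether the lists of the doses share a scale is not stated.

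PPR (MELO3C008512) belongs to the pentatricopeptide repeat proteins, which bind and process RNA in mitochondria and plastids. Its mock value was 82.7, and it was the 1 gene of the list at 0 in low-dose radicles. Its mock value was also the lowest of the 70 genes below mock. In high-dose radicles it was listed at 313, above the mock value that both doses share.

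Of the lipid-related genes, LOX (MELO3C014630) encodes a lipoxygenase, an enzyme that adds oxygen to polyunsaturated fatty acids at the entry to the oxylipins, jasmonic acid among them. LOX had a value of 520 in mock and of 62.4 in low-dose radicles, so that mock was 8.32 times as high, and its log2 of -3.04 was the seventh lowest of the list. At the high dose its value was 2859. The non-specific lipid-transfer protein NSLTP (MELO3C009108), one of a family of small secreted proteins that bind lipids, had values of 7824 in mock and 3364 in low-dose radicles, 43.0% of mock and a log2 of -1.22. This was close to the median of -1.33 of the genes below mock. Allene oxide synthase (*AOS*), which takes the lipoxygenase product towards jasmonic acid, is on no radicle list.

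**Figure D3:**
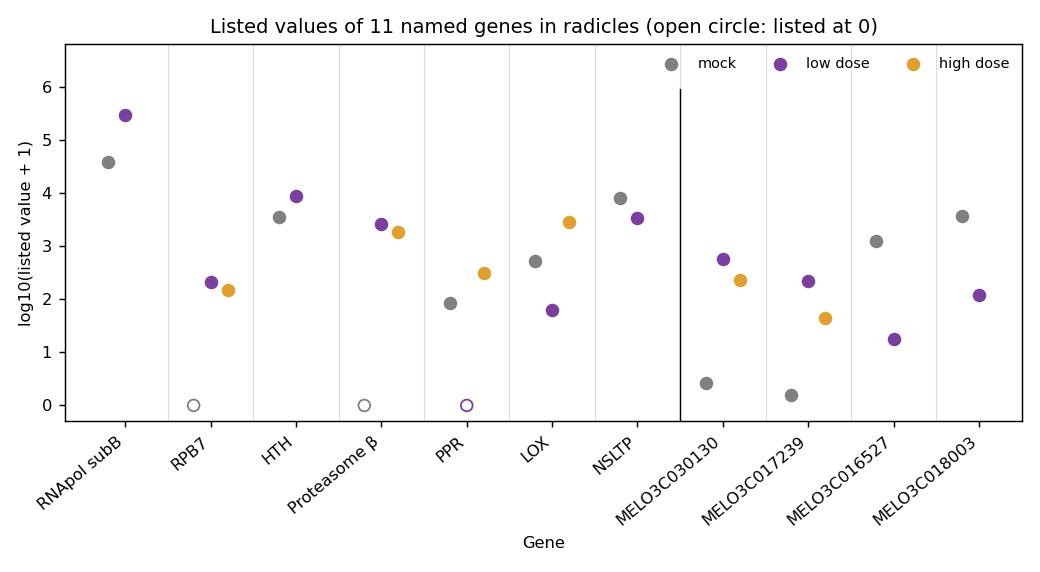
Points give log10(listed value + 1) of 11 named genes in mock (grey), low-dose (purple) and high-dose (orange) radicles, 1 combined value per group, with open circles for genes listed at 0 and no orange point for genes outside the high-dose list. The 7 genes left of the black line are named by the study. PPR and LOX have the low-dose point below mock and the high-dose point above it.

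The remaining genes of the table were not on the low-dose list. Neither reactive oxygen gene was on it, that is, neither the peroxidase nor the respiratory burst oxidase RBOH, and the same held for the proline-rich protein PRP and for the 5 transposable element genes. A gene outside the list has no low-dose value here, and no statement on its level at the low dose is possible.

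Among the genes without a name and above 0 in both groups, the largest differences above mock were those of MELO3C030130, with 1.65 in mock and 566 in low-dose radicles (a log2 of 7.74), and of MELO3C017239, with 0.549 and 215 (a log2 of 7.13). With mock values this close to 0, the log2 depends on the added 1, and it moved to 5.63 and 4.42 with an added 10. The largest differences below mock were those of MELO3C016527, with 1226 in mock and 16.9 in low-dose radicles (a log2 of -6.10), and of MELO3C018003, with 3732 and 119 (a log2 of -4.96). Their mock values were 72.3 and 31.3 times as high as the low-dose values. Both of the first pair were also on the high-dose list, at 228 and 43.1, and neither of the second pair was.

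The list also held 23 XLOC loci, transcribed loci that carry no melon gene identifier, beside 268 genes with an identifier. Of the XLOC loci 20 were above mock and 3 below, against 201 and 67 of the genes with an identifier. Past a log2 of 2, 14 of the 23 XLOC loci were above mock and 1 below, compared with 108 and 11 of the 268 genes with an identifier. The median log2 was 2.68 over the XLOC loci and 1.72 over the genes with an identifier, and the median mock value was 375 and 1200, so that the XLOC loci also lay in the range of lower mock values. Their highest low-dose value was 22361 and their lowest was 113.

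Low-dose values of genes with little or no signal in mock shared a regular spacing. Of the 24 genes at 0 in mock, 17 had low-dose values that were a whole number of steps of 0.745 apart, within 0.01 of a step. The same spacing and remainder were found in 14 of 29 genes with a mock value above 0 and under 10, and a further 6 of these 29 shared a second remainder. With a mock value of at least 10, 5 of 238 genes had the first remainder (2.10%), where the tolerance covers 2% of the step. RPB7 and the proteasome subunit were not among the genes with the shared spacing, whereas MELO3C017239 was. Mock values of low genes recurred as well, with 1.10 listed for 7 of the 29 genes, 2.20 for 4 and 0.549 for 3. Whether the low-dose signal of these genes came from 1 or from both of the duplicate libraries was not tested, as values per library were not at hand. This limit applies to the large log2 values of genes with little signal in mock. Without the 36 genes that shared the first remainder, 90 genes were above mock past a log2 of 2, and 183 past a log2 of 1.

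**Figure D4:**
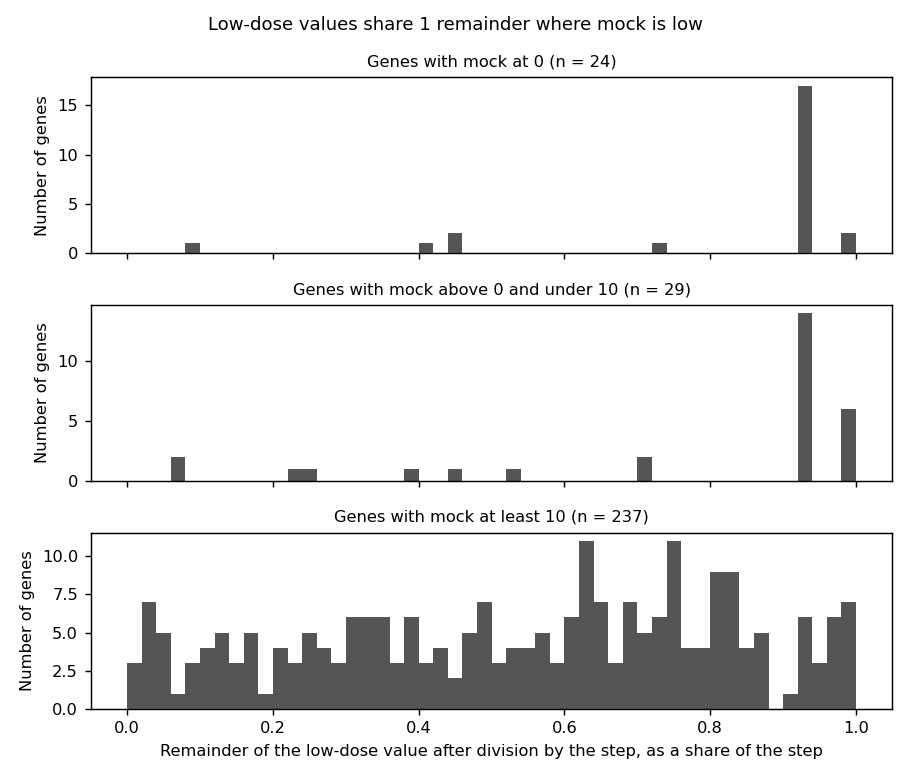
Histograms give the number of genes by the remainder of the low-dose value after division by the step of 0.745, as a share of the step, for genes at 0 in mock, above 0 and under 10 in mock, and at least 10 in mock. In the upper panels 17 of 24 and 14 of 29 genes fall within 0.01 of 0.935, and in the lowest panel, which leaves out PPR at 0, the genes spread over the whole range.

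Values of 0 in mock were stored as minute remnants of differing size, which were 1.39e-17 in 20 of the 24 genes at 0 in mock and 5.55e-17 in the other 4. The former 20 were all on the high-dose radicle list and the latter 4 were not. PPR at the low dose was stored as 5.55e-17, and all 8 zeros of the high-dose list as 1.39e-17. The mock zeros of the 20 shared genes thus had the stored size of the high-dose zeros, and the other 4 had that of PPR at the low dose. Whether the mock values of the shared genes had been scaled together with the low-dose or with the high-dose libraries is not stated. For RNApol subB, HTH and NSLTP, which are not shared, the study's own low-dose log2 equals the listed 2.92, 1.32 and -1.22. For LOX, which is shared, the study's high-dose log2 equals the listed 2.46. Its low-dose log2 in the study is a smaller decrease than the listed -3.04. The part of the scaling in the differences was not tested. This limit covers the differences of all 250 genes shared with the high-dose list. Of the 250 genes also on the high-dose list (a share of 85.9% here and of 8.05% of the longer high-dose list), 194 were above mock and 56 below, with a median log2 of 2.0 for those above mock and above 0 in both groups. Of the 41 genes on the low-dose list alone, 27 were above mock and 14 below, with a median of 1.67 for the same kind of gene. The genes below mock and above 0 in both groups had medians of -1.33 and -1.31. RNApol subB, HTH and NSLTP belong to the 41, and RPB7, the proteasome subunit, PPR and LOX to the 250.

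In seeds, 14 of the 291 genes were on the list of low-dose seeds and 14 on that of high-dose seeds, which is 10.7% of the former and 43.8% of the latter. Either list held 21 of the radicle genes, 7.22% of the low-dose radicle list. Of these 21, 16 were above mock in low-dose radicles and 5 below, which is 76.2% above mock compared with 75.9% for the other 270. Among the named genes, RNApol subB, NSLTP and MELO3C030130 were on both seed dose lists, HTH, RPB7 and the proteasome subunit on that of high-dose seeds alone, and MELO3C018003 on that of low-dose seeds alone.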

How the data were processed

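The series sequenced RNA from seeds and radicles in 12 libraries, and the 4 libraries of low-dose and mock radicles are used here, grouped by their titles. Per the labels the RNA was polyadenylated, whereas the study's methods describe rRNA-depleted, directional libraries. The authors aligned clean reads to the DHL92 v4 melon genome. Bowtie2 and SAMtools are named in the submitters' processing notes. How genes were counted and scaled is not given in the sources used here. The deposited values, named FPKM by the authors, were treated as a relative signal, with 1 value per gene and group and for selected genes. They hold no read counts, so the depth behind a value is unknown here, and no interval is given.

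Genes were matched by identifier, and values under 1e-10 were taken as 0. A pseudocount of 1 was added before taking log2 ratios, with no minimum. The step was the most frequent difference below 1 between low-dose values of genes at 0 in mock. Scripts were tested on simulated data. The members and lists were chosen with earlier results of these data known. Named genes are those of the study's gene table on the list, and the 2 other genes with the highest and the 2 with the lowest log2 among genes above 0 in both groups. The spacing, the remnants of 0 and the identifier numbers were looked at after the values had been seen. Python 3.11.15, pandas 2.3.3, numpy 2.4.6 and matplotlib 3.10.9 were used.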

Additional observations from a re-analysis of the deposited data

Results flagged for a closer look

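PPR (MELO3C008512) and LOX (MELO3C014630) were listed on opposite sides of mock at the doses: at the low dose their log2 differences from mock were -6.39 and -3.04, and at the high dose 1.91 and 2.46. Each is 1 combined value per group against the same mock value, and the difference between the doses was not tested. As PPR was at 0 at the low dose, the size of its low-dose log2 depends on the added 1. It was -9.69 with an added 0.1 and -3.21 with an added 10. No group has the number of separate values needed to look for a sample that stands apart.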

How the results depend on the processing

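No paired analysis was possible because the duplicates of each group are given only as 1 combined value. For the same reason leaving out each replicate was not run. A count within 1.5 times the value given was read as kept. The numbers of genes past a log2 of 1 and of 2, in each direction, were kept with a pseudocount of 0.1 or 10, with a minimum of 100 in 1 of the groups, without genes at 0, without XLOC loci and, chosen after the values had been seen, without genes on the recurring step. With the minimum of 100, 215 genes were above and 68 below mock past a log2 of 1. The genes at 0 and the XLOC loci are too few to move the counts above mock by 1.5 times. These settings could therefore hardly change the counts, which rest on a selected list. The stricter threshold of 2 leaves 122 genes above and 12 below mock. Median ratio scaling divided the low-dose values by the median ratio over genes with signal in both groups (a log2 of 1.66) before the pseudocount was added, so that genes near 0 moved by less and PPR, at 0, stayed at -6.39. It gave 100 genes above and 70 below mock past a log2 of 1, and 75 above and 70 below past 2. HTH went to -0.35. The shift of HTH is that of the listed genes with high values as a whole, and its sign followed from the construction. Among 11 named genes, median ratio scaling moved 9 by more than a factor of 1.5 in the ratio and turned HTH, and pseudocounts of 0.1 and 10 moved 5 each, all with a value of 0 or under 2 in a group. Treating values under 1 as 0 gave 28 genes at 0 in mock in place of 24. Without read counts, what the depth limits was not computed.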

Other observations

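The numbers within the melon gene identifiers differed between the directions. Of 201 genes with an identifier above mock in low-dose radicles, 96 (47.8%) had a number of at least 27000, and of 67 below mock, 4 (5.97%) did. Among genes with a mock value of at least 100 the shares were 48.8% and 6.06%, so that they were as far apart without the genes of low mock value. The high-dose list shares its mock values with the low-dose list. In it, 361 of 1070 genes above mock (33.7%) and 110 of 1873 below (5.87%) had such a number. Over the identifiers of the mock radicle list the share was 16.1%. That list holds the genes of the radicle dose lists and no others, so this share covers the same selected genes and is not one of all genes in mock radicles. The bound of 27000 was chosen after the values had been seen, the difference was not tested, and what the numbering stands for is not given in the data used here. The list also held 6 pairs of genes with consecutive identifiers, and in each pair both genes were above mock. Of all listed genes taken singly, 75.9% were above mock, which is not a share of pairs. An expected number of such pairs was not computed.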
